A study of Mus musculus with 9 samples.

Results

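The thick ascending limb of the loop of Henle reabsorbs salt without water and sets the calcium and magnesium that leave with the urine. The 9 genes described here carry that work or mark the segment. They were chosen by name, with earlier results of these data known, from the 17963 genes of the deposited table. Counts of members set beside shares of all genes are therefore a description and not a test. All 9 were found in the table, and all 9 passed the filter on low counts that left 13954 genes for testing. Slc12a1 encodes NKCC2, the apical sodium, potassium and chloride cotransporter, and Kcnj1 encodes ROMK, the potassium channel that returns potassium to the lumen beside it. Bsnd encodes barttin, a membrane protein needed for the exit of chloride across the basolateral side. Cldn10, Cldn16 and Cldn19 encode claudins, tight junction proteins that form the paracellular pathways for sodium, calcium and magnesium, and Casr encodes the calcium-sensing receptor of the basolateral membrane. Umod encodes uromodulin, the most abundant protein of normal urine, which the segment makes and releases into the lumen. Egf encodes the precursor of epidermal growth factor, which in the mouse kidney is made in the thick ascending limb and the distal convoluted tubule.

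RNA was sequenced from kidney cortex of wild-type mice on day 4, in 3 groups of 3 libraries. The cisplatin+YSJZD group had received cisplatin, a platinum drug that injures the kidney tubule, into the peritoneum and Yishen Jiangzhuo decoction (YSJZD), a herbal medicine, by gavage. The cisplatin group had received cisplatin and water by gavage, and the control group saline and water. The labels used here give no strain, age, sex or dose. The library totals lay between 15029274 and 16690471 expected counts. Whether the 3 libraries of a group stand for 3 mice is not stated in the labels, and the p-values cover the spread between libraries, which may be technical. Levels are given as CPM, the usual count scaled to the library's TMM-adjusted total, and a gene was called at an adjusted p under 0.05 in edgeR's quasi-likelihood test. In a piece of tissue, fewer cells of a segment and less RNA per cell cannot be told apart.

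Some libraries stood apart within their group. Control replicate 3 had the highest control level of all members but Cldn10, and its genes of the inner medulla and thin limb lay above the average of the control libraries by a median of 0.97 on the log2 scale, where control replicates 1 and 2 had -0.40 and -0.38. YSJZD replicate 1 had the lowest level of its group for Umod, Slc12a1, Egf, Cldn10, Cldn19, Kcnj1 and Casr. Values without these libraries are given beside each result of a member whose call changed.

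Several results below turn on transcripts that start or splice differently, so their distinguishing sequences are given first. Cldn10 has a pair of alternative first exons whose starts lie 66824 bases apart on GRCm38. The upstream exon begins the claudin-10a type of transcript, known from the proximal tubule, and the downstream exon begins the claudin-10b type, known from the thick ascending limb. The first 60 coding bases of each, read from the reference on the plus strand with the start codon in capitals, were the same at 20 of 60 positions without gaps.
Cldn10 upstream first exon, chr14:118788157-118788216: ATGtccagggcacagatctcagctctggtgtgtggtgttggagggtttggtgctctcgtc
Cldn10 downstream first exon, chr14:118854990-118855049: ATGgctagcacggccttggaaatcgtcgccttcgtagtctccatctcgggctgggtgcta

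The long form of Kcnj1 (NM_001168354.1) adds 20 residues in front of the start of the short form (NM_019659.3). In the rat the long protein is known as ROMK1 of the collecting duct, while the short form corresponds to the ROMK2 of the thick ascending limb. The spliced first 63 coding bases of the long form are shown, on the plus strand of GRCm38, with both start codons in capitals.
Kcnj1 long form, within chr9:32394144-32396344: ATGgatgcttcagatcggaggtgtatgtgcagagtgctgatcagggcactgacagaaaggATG

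The deposited table holds a pair of Slc12a1 transcripts that carry different copies of a 96-base exon, which encodes part of a membrane-spanning stretch of the cotransporter. The copies, on the plus strand of GRCm38, were the same at 56 positions, and the 40 that differ are in capitals.
Exon of NM_001079690.1, chr2:125166673-125166768: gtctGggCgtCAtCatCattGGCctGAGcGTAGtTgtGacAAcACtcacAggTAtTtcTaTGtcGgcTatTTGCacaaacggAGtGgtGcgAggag
Exon of NM_183354.2, chr2:125166123-125166218: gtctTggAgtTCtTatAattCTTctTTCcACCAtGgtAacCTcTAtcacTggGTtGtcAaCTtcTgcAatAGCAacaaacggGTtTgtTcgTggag

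Levels per transcript length place the 9 genes against each other. On the deposited FPKM scale Umod was the highest member in each group, at 924 ± 274 with YSJZD, 453 ± 204 with cisplatin and 1454 ± 520 in control (SD, n = 3 each), with no overlap with the member next to it in any group. The order below it differed between groups. Cldn10 is ranked here by its gene total, over both first exons. The main transcript of its downstream exon, NM_021386.4, had 26.45, 45.92 and 59.82 FPKM with YSJZD. It had 20.42, 22.98 and 36.85 FPKM with cisplatin and 44.69, 23.97 and 73.09 FPKM in control. In the YSJZD group Cldn10 (141 ± 24.0 FPKM), Slc12a1 (136 ± 67.9) and Egf (118 ± 55.8) followed, each overlapping the next in its libraries. In the cisplatin group Slc12a1 (52.0 ± 10.6 FPKM) and Cldn10 (51.5 ± 6.5) overlapped each other and lay above Kcnj1 (18.5 ± 5.2), while Egf (9.25 ± 4.6) was among the lower members and overlapped Cldn16 (9.73 ± 2.6) and Cldn19 (7.67 ± 1.6). In the control group Egf (292 ± 85.0 FPKM), Cldn10 (258 ± 31.8) and Slc12a1 (169 ± 94.3) came after Umod, again overlapping their neighbours. Casr was lowest with YSJZD (6.89 ± 1.6 FPKM) and with cisplatin (1.73 ± 1.1), and Cldn16 was lowest in control (7.73 ± 0.85), below Casr (12.4 ± 3.3) with no overlap.

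**Figure D1:**
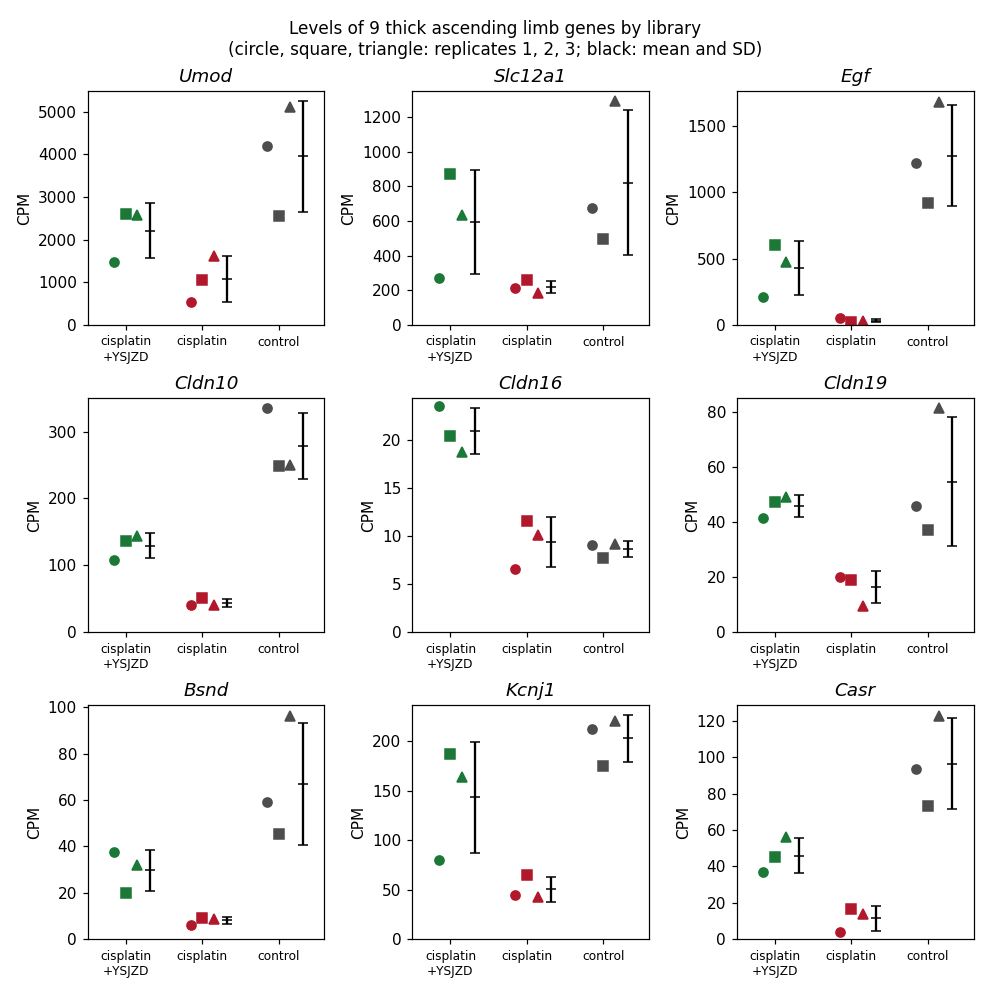
Level of each of the 9 genes in CPM (y axis, linear, from 0) in the cisplatin+YSJZD, cisplatin and control groups, with a circle, square and triangle for replicates 1, 2 and 3 and the mean and SD in black. The cisplatin libraries lie below every control library for all genes but Cldn16, which is highest with YSJZD.

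The comparison of cisplatin with control asks how the segment's genes stood on day 4 in animals that had the drug. Of the 9 members, 8 fell and none rose, where 26.0% of all genes tested fell and 28.6% rose. The members' median log2 fold change was -2.01, against 0.04 for all genes tested. The libraries of the 2 groups did not overlap for the same 8 members, with cisplatin lower, as held for 31.0% of all genes. Cldn16 was the exception. Cldn10 is counted by its gene total here and in the next comparisons. Its downstream form, the claudin-10b type, did not pass in any comparison when tested apart (below). With library totals as the only scaling the count of members was again 8, while the share of higher genes among those called was 66.1% in place of 52.4%.

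Egf fell the most. Its level was 47.6, 19.1 and 30.4 CPM with cisplatin, against 1223, 922 and 1681 CPM in control. The highest cisplatin library was thus far below the lowest control library, and the log2 fold change was -5.30 ± 0.49 (SE, adjusted p = 1.6e-05), a level 39.4-fold lower with cisplatin. Casr had 3.9, 16.7 and 13.7 CPM with cisplatin, against 93.6, 73.1 and 122.6 CPM in control, a log2 fold change of -3.08 ± 0.44 (adjusted p = 0.000235). Cisplatin replicate 1 was the lowest library for this receptor. Bsnd had 6.2, 9.1 and 8.8 CPM with cisplatin, against 59.2, 45.5 and 96.4 CPM in control, a log2 fold change of -3.06 ± 0.33 (adjusted p = 3.8e-05). Its cisplatin libraries were close together and its control libraries wide apart.

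Both transport genes of the apical membrane fell. Slc12a1 had 212, 257 and 187 CPM with cisplatin, against 672, 498 and 1295 CPM in control, a log2 fold change of -1.91 ± 0.43 (adjusted p = 0.00376). Kcnj1 had 44.1, 65.1 and 42.0 CPM with cisplatin, against 212, 175 and 220 CPM in control, a log2 fold change of -2.01 ± 0.30 (adjusted p = 0.000292). Neither gene had a cisplatin library as high as any control library. Umod had 542, 1062 and 1619 CPM with cisplatin, against 4190, 2553 and 5119 CPM in control, a log2 fold change of -1.88 ± 0.41 (adjusted p = 0.00296). Cisplatin replicate 1 was the lowest of all 9 libraries for Umod and cisplatin replicate 3 the highest of its group.

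Of the 3 claudins, 2 fell and 1 did not pass the test. Cldn10 had 40.3, 50.5 and 39.6 CPM with cisplatin, against 335, 249 and 250.5 CPM in control, a log2 fold change of -2.68 ± 0.18 (adjusted p = 3e-06), the smallest p among the members. Cldn19 had 20.0, 19.1 and 9.5 CPM with cisplatin, against 45.7, 37.0 and 81.5 CPM in control, a log2 fold change of -1.76 ± 0.33 (adjusted p = 0.00121). Cldn16, whose protein pairs with that of Cldn19 in the cation pathway of the segment, had 6.5, 11.5 and 10.1 CPM with cisplatin, against 9.1, 7.7 and 9.1 CPM in control. Its groups overlapped, and the log2 fold change was 0.11 ± 0.22 (adjusted p = 0.689) and turned to -0.06 without cisplatin replicate 2. A test that misses the threshold does not show that its level was the same.

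The comparison of YSJZD with cisplatin asks whether the decoction changed these levels in animals that had the drug. Of the 9 members, 8 rose and none fell, where 17.4% of all genes tested rose and 18.0% fell. The median log2 fold change was 1.51, against -0.01 for all genes tested. This comparison and the first share the cisplatin libraries, so a low cisplatin value enters both. Libraries did not overlap for the same 8 members, with YSJZD higher, as held for 23.7% of all genes, and Umod was the exception here.

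Egf was also the gene with the greatest difference in this comparison. Its level was 207, 605 and 476 CPM with YSJZD, against 47.6, 19.1 and 30.4 CPM with cisplatin, a log2 fold change of 3.73 ± 0.46 (adjusted p = 0.000353), or 13.3-fold higher. Casr had 36.6, 45.1 and 55.9 CPM with YSJZD, against 3.9, 16.7 and 13.7 CPM with cisplatin, a log2 fold change of 2.01 ± 0.43 (adjusted p = 0.00557). Bsnd had 37.4, 19.9 and 31.8 CPM with YSJZD, against 6.2, 9.1 and 8.8 CPM with cisplatin, a log2 fold change of 1.89 ± 0.32 (adjusted p = 0.00176). In all 3 genes every YSJZD library was above every cisplatin library.

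Slc12a1 had 273, 869 and 636 CPM with YSJZD, against 212, 257 and 187 CPM with cisplatin, a log2 fold change of 1.44 ± 0.43 (adjusted p = 0.0246). YSJZD replicate 1 was close to the cisplatin libraries, and the call was lost without YSJZD replicate 2 (log2 fold change 1.06, adjusted p = 0.0960), YSJZD replicate 3 (1.39, 0.0635), cisplatin replicate 1 (1.42, 0.0670) and cisplatin replicate 3 (1.34, 0.0667). Kcnj1 had 80.0, 187 and 163 CPM with YSJZD, against 44.1, 65.1 and 42.0 CPM with cisplatin, a log2 fold change of 1.51 ± 0.29 (adjusted p = 0.00362). Umod had 1466, 2592 and 2582 CPM with YSJZD, against 542, 1062 and 1619 CPM with cisplatin. YSJZD replicate 1 lay below cisplatin replicate 3, and the log2 fold change of 1.04 ± 0.40 did not pass the test (adjusted p = 0.0653). Umod passed without cisplatin replicate 3 (1.46, adjusted p = 0.0203), without YSJZD replicate 1 (1.27, 0.0449), and in DESeq2 with all 9 libraries (1.03, 0.0246).

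Each of the 3 claudins rose by its gene total, while the downstream form of Cldn10 did not pass when tested apart (edgeR adjusted p = 0.196). Cldn10 had 108, 137 and 143 CPM with YSJZD, against 40.3, 50.5 and 39.6 CPM with cisplatin, a log2 fold change of 1.57 ± 0.18 (adjusted p = 0.000224). Cldn19 had 41.4, 47.3 and 49.2 CPM with YSJZD, against 20.0, 19.1 and 9.5 CPM with cisplatin, a log2 fold change of 1.5 ± 0.33 (adjusted p = 0.00609). Cldn16 had 23.5, 20.4 and 18.8 CPM with YSJZD, against 6.5, 11.5 and 10.1 CPM with cisplatin, a log2 fold change of 1.16 ± 0.22 (adjusted p = 0.00315). Cldn16, which did not pass the test between cisplatin and control, was thus called higher with YSJZD.

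The comparison of YSJZD with control asks how far the levels stood from those of uninjured cortex. Of the 9 members, 3 fell and 1 rose, where 9.37% of all genes tested fell and 9.93% rose, and the members' median log2 fold change was -0.84, against 0.01 for all genes tested. Egf (207, 605 and 476 CPM with YSJZD, against 1223, 922 and 1681 CPM in control) was 2.97-fold lower, with a log2 fold change of -1.57 ± 0.42 (adjusted p = 0.0264). The gene total of Cldn10 fell by 1.11 ± 0.17 on the log2 scale (adjusted p = 0.00228) and Bsnd by 1.17 ± 0.30 (adjusted p = 0.0225). Every YSJZD library was below every control library for these 3 genes and Casr, as held for 19.5% of all genes. Cldn16 rose, with 23.5, 20.4 and 18.8 CPM with YSJZD against 9.1, 7.7 and 9.1 CPM in control, a log2 fold change of 1.27 ± 0.22 (adjusted p = 0.00363). Its lowest YSJZD library was above its highest control library. With library totals only, the count of members was again 4, while 75.4% in place of 51.5% of the called genes were higher.

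The other 5 members did not pass. Casr had 36.6, 45.1 and 55.9 CPM with YSJZD, against 93.6, 73.1 and 122.6 CPM in control, and its log2 fold change of -1.07 ± 0.41 missed the threshold (adjusted p = 0.0945). It passed in DESeq2 (-1.09, adjusted p = 0.0442), in a fit of the 6 libraries compared (-1.06, 0.00965) and without cisplatin replicate 1 (-1.07, 0.00969). Libraries overlapped for Umod (log2 fold change -0.84 ± 0.40), Kcnj1 (-0.50 ± 0.29), Slc12a1 (-0.47 ± 0.42) and Cldn19 (-0.25 ± 0.32), with adjusted p of 0.174 to 0.625. Without control replicate 3, Slc12a1 turned to 0.02 and Cldn19 to 0.15.

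The calls of Egf and Bsnd against control were lost as single libraries were left out. Egf lost its call without YSJZD replicate 1 (log2 fold change -1.24, adjusted p = 0.0649), YSJZD replicate 3 (-1.65, 0.0631), control replicate 1 (-1.60, 0.0666) and control replicate 3 (-1.32, 0.0873). Bsnd lost its call without YSJZD replicate 2 (-0.95, adjusted p = 0.0660), YSJZD replicate 3 (-1.22, 0.0570), control replicate 1 (-1.26, 0.0511) and control replicate 3 (-0.82, 0.0818). Cldn10 and Cldn16 passed in each of these fits. The count of members called was 4 with all libraries and 2 without YSJZD replicate 3, without control replicate 1 or without control replicate 3. Calls over all genes also dropped as the libraries named here were left out. They went from 2694 to between 1607 (without control replicate 1) and 2241 (without YSJZD replicate 2).

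**Figure D2:**
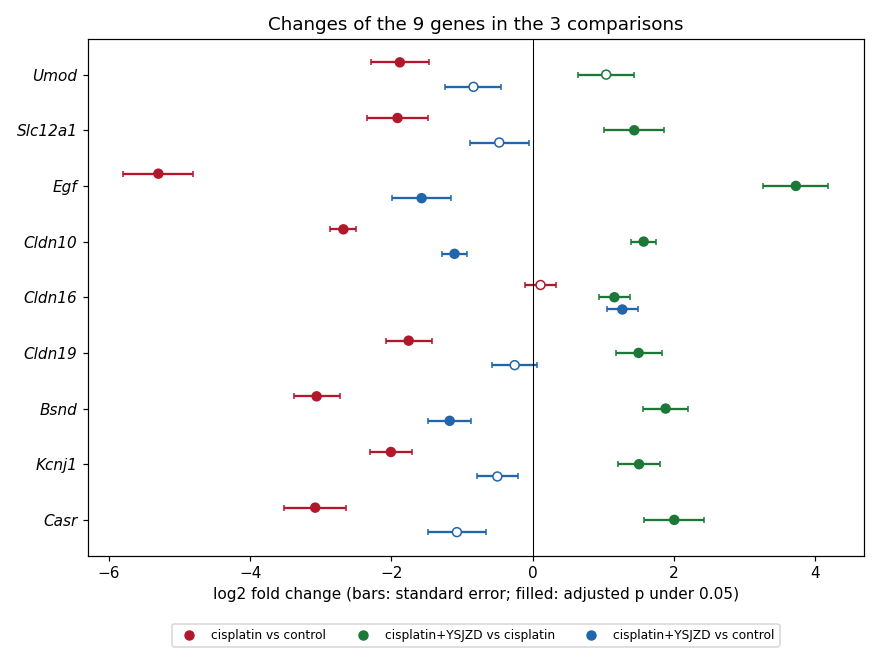
Log2 fold change (x axis) of each of the 9 genes (rows) in cisplatin vs control (red), cisplatin+YSJZD vs cisplatin (green) and cisplatin+YSJZD vs control (blue), with standard errors and filled points where the adjusted p was under 0.05. Egf lies furthest from 0 in the first 2 comparisons (-5.30 and 3.73), and Cldn16 is near 0 with cisplatin (0.11) and to the right of 0 in both comparisons of YSJZD (1.16 and 1.27).

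To ask whether the members moved by unequal amounts, each was set against Slc12a1 in the same library as a log2 ratio. The ratios were tested with limma across all genes. The same Slc12a1 value enters every gene's ratio in a library, so its spread is shared by all of them. The limma test pools the spread over genes as if they were independent, so its p-values here may be too small. Since Slc12a1 itself fell with cisplatin, most genes rose relative to it, 71.8% of all genes against 1.88% that fell. Of the other 8 members, 2 fell relative to Slc12a1 and 1 rose. Egf stood at log2 ratios of -2.15, -3.74 and -2.61 with cisplatin, against 0.86, 0.89 and 0.38 in control, a difference of -3.54 ± 0.63 (SE, limma adjusted p = 2e-07). Casr stood at -5.74, -3.93 and -3.75 with cisplatin, against -2.84, -2.77 and -3.40 in control, a difference of -1.47 ± 0.62 (limma adjusted p = 0.0271). The ratio of Cldn16 rose, the direction of 71.8% of all genes, while the level of Cldn16 itself did not pass the test (log2 fold change 0.11). Its ratio stood at -5.00, -4.46 and -4.20 with cisplatin, against -6.19, -5.99 and -7.13 in control, a difference of 1.88 ± 0.63 (limma adjusted p = 0.00547).

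The libraries of the 2 groups did not overlap in any of these 3 ratios. The two-sided exact permutation p was 0.1 for each, the smallest that 3 against 3 allows. The share of all genes whose ratios did not overlap was not counted in any comparison. Slc12a1 itself did not overlap between cisplatin and control, and its value enters every ratio. The Casr difference rested on cisplatin replicate 1, without which it was -0.84 (limma adjusted p = 0.318), and its call was also lost without control replicate 1 (-1.39, 0.0933) or control replicate 2 (-1.35, 0.0605). Bsnd stood at -5.07, -4.79 and -4.38 with cisplatin, against -3.50, -3.45 and -3.75 in control, which do not overlap either (exact permutation p = 0.1). Its difference of -1.18 ± 0.62 missed the threshold (limma adjusted p = 0.0735) and passed without YSJZD replicate 1 (-1.18, 0.0209). The ratios of Cldn10 (-0.86 ± 0.63), Umod (-0.15 ± 0.65), Kcnj1 (-0.22 ± 0.63) and Cldn19 (0.07 ± 0.62) to Slc12a1 did not pass, with limma adjusted p of 0.194 to 0.924, and errors this wide do not show that the genes moved together.

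Between YSJZD and cisplatin, Egf was the single member whose ratio to Slc12a1 passed the test. It rose, as 0.702% of all genes did, while 37.9% of all genes fell relative to Slc12a1. The log2 ratios of Egf were -0.40, -0.52 and -0.42 with YSJZD, against -2.15, -3.74 and -2.61 with cisplatin, a difference of 2.39 ± 0.63 (limma adjusted p = 0.00145). The YSJZD ratios lay within a narrow range although Egf itself spanned 207 to 605 CPM in those libraries. Without cisplatin replicate 2 the difference was 1.94 (limma adjusted p = 0.0500, under the threshold before rounding). Between YSJZD and control no ratio of the 8 passed in limma, where 4.85% of all genes did, and 1 ratio, that of Cldn16, had an unadjusted p under 0.05. The Cldn16 ratio was -3.53, -5.40 and -5.07 with YSJZD, against -6.19, -5.99 and -7.13 in control, with no overlap and a difference of 1.77 ± 0.63 (limma adjusted p = 0.0820), and it passed without YSJZD replicate 2 (2.14, 0.0228).

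**Figure D3:**
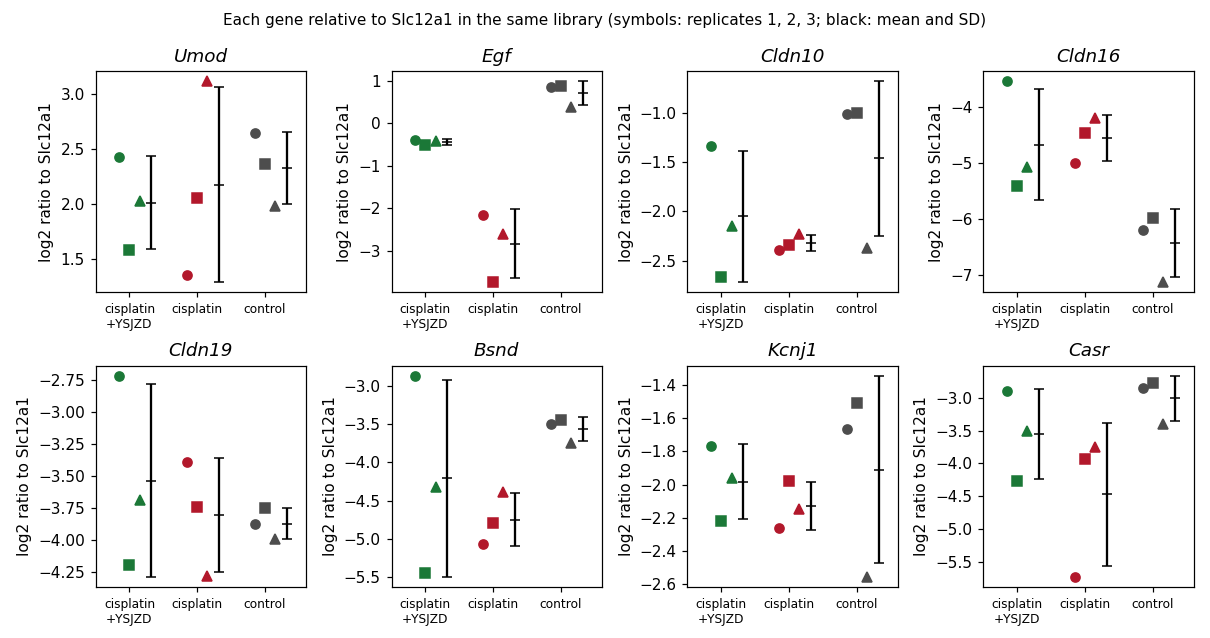
Log2 ratio of 8 genes to Slc12a1 in the same library (y axis) in the cisplatin+YSJZD, cisplatin and control groups, with symbols for replicates 1, 2 and 3 and the mean and SD in black. Egf is lowest with cisplatin (-2.15 to -3.74) and Cldn16 is lowest in control (-5.99 to -7.13), while the ratios of Umod, Cldn19 and Kcnj1 overlap between the groups.

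Splitting Cldn10 by its first exon showed that the gene's total followed the upstream exon, which held most of its reads in control. The split uses RSEM's division of reads between transcripts and was made after the gene's values were seen. The upstream form had 25.7, 33.5 and 9.81 CPM with cisplatin, against 293, 229 and 190 CPM in control, a log2 fold change of -3.36 ± 0.38 (edgeR adjusted p = 5.1e-05). The downstream form, which begins claudin-10b, had 14.5, 17.0 and 29.8 CPM with cisplatin, against 42.3, 20.8 and 60.1 CPM in control. Its libraries overlapped, and its log2 fold change of -1.01 ± 0.41 missed the threshold (adjusted p = 0.0609), though it passed without cisplatin replicate 3 (-1.38, 0.0247) or control replicate 2 (-1.33, 0.0160).

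The downstream form's share of the gene's reads was 36.1%, 33.6% and 75.3% with cisplatin, against 12.6%, 8.33% and 24.0% in control. The shares did not overlap, and the log2 ratio of downstream to upstream form differed by 2.57 (two-sided exact permutation p = 0.1, the smallest that 3 against 3 allows). How many other genes have transcript shares that do not overlap was not counted in any comparison. Genes of the proximal tubule, where claudin-10a is known to be made, moved with the upstream form. Of the 16 proximal tubule genes tested, 14 fell with cisplatin and none rose, where 26.0% of all genes tested fell and 28.6% rose. The 16 genes had a median log2 fold change of -2.69. Their summed level was 5489 to 8012 CPM with cisplatin, against 68110 to 86711 CPM in control. The part of proximal tubule RNA in the fall of Cldn10 was not tested.

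With YSJZD the upstream form had 87.8, 100.7 and 98.3 CPM, against 25.7, 33.5 and 9.81 CPM with cisplatin, a log2 fold change of 2.05 ± 0.36 (edgeR adjusted p = 0.00212). The downstream form had 20.3, 36.2 and 44.8 CPM with YSJZD, against 14.5, 17.0 and 29.8 CPM with cisplatin, a log2 fold change of 0.73 ± 0.41 (adjusted p = 0.196). The downstream share was 18.8%, 26.4% and 31.3% with YSJZD, below each cisplatin library, and the log2 ratio of the forms differed by -1.51 (exact permutation p = 0.1). Of the 16 proximal tubule genes, 15 rose with YSJZD against cisplatin and none fell, where 17.4% of all genes tested rose and 18.0% fell. The sum of the 16 genes was 21653 to 39661 CPM with YSJZD.

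Against control, the upstream form was lower with YSJZD (log2 fold change -1.31 ± 0.35, edgeR adjusted p = 0.0258) and the downstream form did not pass (-0.28 ± 0.41, adjusted p = 0.678). The upstream call was lost with library totals as the only scaling (-1.11, 0.0507) and without any of 5 libraries, YSJZD replicates 1 (-1.25), 2 (-1.35) and 3 (-1.33) and control replicates 1 (-1.13) and 2 (-1.34), with adjusted p of 0.0597 to 0.0948. The downstream value turned to 0.10 without control replicate 3.

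The share of the long form of Kcnj1 was highest in the YSJZD libraries. This split, like that of Cldn10, was made after the gene's values were seen. The long form made up 8.42%, 10.1% and 10.2% of the gene's reads with cisplatin, against 12.1%, 6.78% and 13.7% in control. These shares overlap, and both forms fell, the long form by 2.22 ± 0.39 and the short form by 1.98 ± 0.30 on the log2 scale (edgeR adjusted p = 0.000875 and 0.000352). With YSJZD the long form made up 26.2%, 23.5% and 21.1%, above every cisplatin and every control library. The log2 ratio of long to short form was higher with YSJZD than with cisplatin by 1.55 and than in control by 1.40 (exact permutation p = 0.1 each, the smallest possible). How many other genes have transcript shares that separate in this way was not counted.

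In CPM, the long form rose with YSJZD against cisplatin by 2.77 ± 0.40 on the log2 scale (edgeR adjusted p = 0.000772) and the short form by 1.27 ± 0.30 (adjusted p = 0.00853). Against control neither passed, at 0.55 ± 0.36 for the long form and -0.71 ± 0.29 for the short form. The values have opposite signs, and the difference between them was tested by the ratio of the forms above and not in the fit across genes. Collecting duct principal cell genes mark where the long form is known in the rat. With YSJZD against cisplatin 3 of 10 were higher and none lower, where 17.4% of all genes tested rose and 18.0% fell. The count higher was 1 to 4 as single libraries were left out. The summed level of the 10 genes was 591 to 772 CPM with YSJZD, 317 to 671 CPM with cisplatin and 444 to 683 CPM in control. Its part in the shares of the long form was not tested.

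The copies of the Slc12a1 exon did not separate the groups. NM_183354.2 took 37.4%, 24.8% and 20.5% of the gene's reads with YSJZD, 5.37%, 46.6% and 30.7% with cisplatin and 35.6%, 35.6% and 21.1% in control. Cisplatin replicates 1 and 2 held the lowest and the highest share of the 9 libraries, so the cisplatin shares spanned those of both other groups. Umod was read almost wholly from 1 transcript, NM_009470.5, with 96.2% to 97.7% of its reads in the YSJZD, cisplatin and control libraries.

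**Figure D4:**
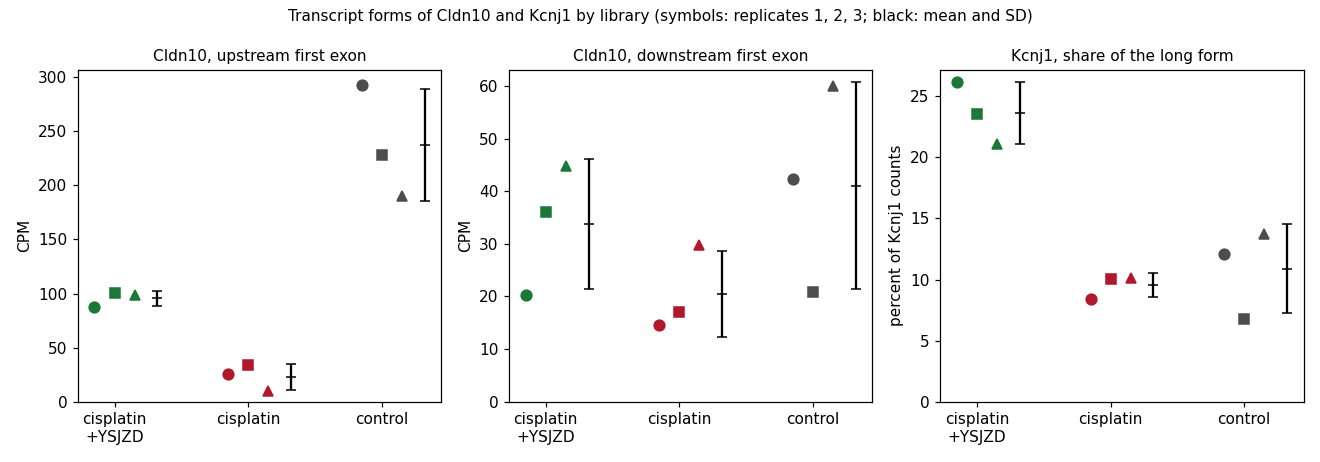
Level in CPM (y axis, linear, from 0) of the upstream and downstream first exon forms of Cldn10, and the percentage of Kcnj1 counts in its long form, in the cisplatin+YSJZD, cisplatin and control groups, with symbols for replicates 1, 2 and 3 and the mean and SD in black. The upstream Cldn10 form separates the groups (9.81 to 33.5 CPM with cisplatin, 190 to 293 CPM in control) while the downstream form overlaps, and the Kcnj1 long form share is highest with YSJZD (21.1% to 26.2%).

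Other genes of the thick ascending limb, from lists chosen with earlier results of these data known, were read from the same fit. The list counts here and below stand beside these shares of all genes tested. With cisplatin 28.6% rose and 26.0% fell, and with YSJZD against cisplatin 17.4% rose and 18.0% fell. Against control, 9.93% rose and 9.37% fell with YSJZD. Among 12 transport partners of the members, 10 fell with cisplatin and none rose (median log2 fold change -1.16), and 9 rose with YSJZD against cisplatin and none fell (median 1.01). Cnnm2, a basolateral protein of magnesium handling, had 15.8, 14.6 and 15.5 CPM with cisplatin, against 51.1, 52.5 and 48.4 CPM in control, a log2 fold change of -1.72 ± 0.14 (edgeR adjusted p = 8.7e-06). Kcnj10, a basolateral potassium channel, fell by 2.17 ± 0.25 with cisplatin and was higher by 1.84 ± 0.25 with YSJZD than with cisplatin. Slc16a7, a monocarboxylate transporter, fell by 2.57 ± 0.32 with cisplatin. Fxyd2, the gamma subunit of the sodium pump, fell by 1.70 ± 0.19 with cisplatin and was higher by 0.96 ± 0.19 with YSJZD than with cisplatin. Against control, 3 of the 12 fell with YSJZD and none rose. The count of partners that rose with YSJZD against cisplatin was 5 without YSJZD replicate 2 or YSJZD replicate 3 and 6 without cisplatin replicate 1.

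Regulators of salt and divalent ion transport were mixed, with 4 of 15 higher and 6 lower with cisplatin (median 0.16). The 4 of 15 lie near the 28.6% of all genes that rose. With library totals as the only scaling, 6 were higher and 4 lower. Pth1r, the parathyroid hormone receptor, which the proximal tubule also makes in quantity, had 132, 194 and 184 CPM with cisplatin, against 1056, 884 and 848 CPM in control, a log2 fold change of -2.45 ± 0.18 (edgeR adjusted p = 4.3e-06). Cldn3, a further claudin, rose by 3.59 ± 0.42 with cisplatin, at 83.7, 81.2 and 121 CPM against 7.7, 6.7 and 9.3 CPM in control. It fell with YSJZD against cisplatin (-1.81 ± 0.38, and -2.48 without YSJZD replicate 1). Maged2, which promotes the surface expression of NKCC2, rose by 1.18 ± 0.15 with cisplatin and stood 0.68 ± 0.15 above control with YSJZD. Between YSJZD and cisplatin 4 of the 15 rose and 2 fell, and the rises numbered 1 to 6 and the falls 1 or 2 as single libraries were left out.

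Among 15 other marker genes of the segment, 12 fell with cisplatin and 1 rose (median -2.46), and 9 rose with YSJZD against cisplatin and none fell (median 1.54). Tmem72, a membrane protein gene, had 9.1, 7.5 and 9.99 CPM with cisplatin, against 68.8, 52.2 and 100.1 CPM in control, a log2 fold change of -3.06 ± 0.27 (edgeR adjusted p = 1.3e-05). Wfdc15b fell by 3.58 ± 0.42, Ckb, the brain-type creatine kinase, by 2.57 ± 0.31 and Irx1, a transcription factor gene, by 1.74 ± 0.21. With YSJZD, Sostdc1, a secreted antagonist of BMP and Wnt, stood at 96.3, 68.8 and 81.7 CPM, against 13.5, 20.3 and 7.2 CPM with cisplatin (log2 fold change 2.59 ± 0.34). Ckb was still lower with YSJZD than in control (-1.76 ± 0.30), 1 of 4 of these 15 genes that were, a count of 1 to 4 as single libraries were left out.

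The 8 genes of uromodulin processing and transcription had 6 lower and none higher with cisplatin (median -0.82), and 5 higher and none lower with YSJZD against cisplatin (median 0.50). Hpn encodes hepsin, the protease that releases uromodulin from the membrane, and had 235, 257 and 317 CPM with cisplatin, against 751, 659 and 618 CPM in control, a log2 fold change of -1.33 ± 0.15 (edgeR adjusted p = 5.3e-05). With YSJZD it was higher than with cisplatin by 0.88 ± 0.15. Prss8, the protease prostasin, fell by 1.5 ± 0.20 with cisplatin, and Dnajb11, a chaperone cofactor of the endoplasmic reticulum, by 1.30 ± 0.14. These are levels in cortex tissue, and the segments that the RNA of Hpn, Prss8 and Dnajb11 came from were not tested.

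Of 9 other ligands and receptors of the EGF family tested, 5 rose with cisplatin and 1 fell, the receptor gene Erbb4 (-1.54). Tgfa, which encodes transforming growth factor alpha, had 33.7, 23.3 and 19.5 CPM with cisplatin, against 4.1, 4.0 and 6.6 CPM in control, a log2 fold change of 2.38 ± 0.32 (edgeR adjusted p = 0.00017). Hbegf, the heparin-binding ligand, had 86.9, 85.8 and 42.4 CPM with cisplatin, against 28.9, 29.1 and 24.1 CPM in control (1.39 ± 0.24). Areg, amphiregulin, had 6.0, 10.6 and 73.5 CPM with cisplatin and at most 0.1 CPM in a control library, so its fold is not given. With YSJZD, Tgfa had 10.9, 5.5 and 7.7 CPM and was lower than with cisplatin by a log2 fold change of -1.66 ± 0.31. In that comparison 4 of the 9 genes fell and 2 rose, with 3 or 4 falls and 0 to 2 rises as single libraries were left out. Without cisplatin replicate 3 the difference of Areg between YSJZD and cisplatin was -3.03 in place of -4.88.

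Genes of neighbouring segments were counted in the same way. Of 9 distal convoluted tubule genes, where Egf is also made, 8 fell with cisplatin and 1 rose (median -2.23), and 4 rose and 1 fell with YSJZD against cisplatin. Pvalb, parvalbumin, fell by 7.37 ± 0.44 and Emx1, a homeobox gene, by 3.15 ± 0.20 with cisplatin. Intercalated cell genes had 5 of 10 lower and 1 higher with cisplatin, and principal cell genes 4 of 10 lower and none higher (2 lower and 2 higher without control replicate 3). Genes of the inner medulla and thin limb, parts that cortex should hold little of (the list includes Aqp1, which the proximal tubule also makes), had 4 of 10 lower and 2 higher with cisplatin, and their summed level was 879 to 1217 CPM with YSJZD, 893 to 1305 CPM with cisplatin and 1307 to 1773 CPM in control. How much of the members' falls came from the depth at which cortex was cut was not tested. Macrophage and monocyte genes had 6 of 8 higher with cisplatin, and a summed level of 83.3 to 118 CPM with YSJZD, 258 to 793 CPM with cisplatin and 93.4 to 133 CPM in control. Their part in the members' values was not tested.

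**Figure D5:**
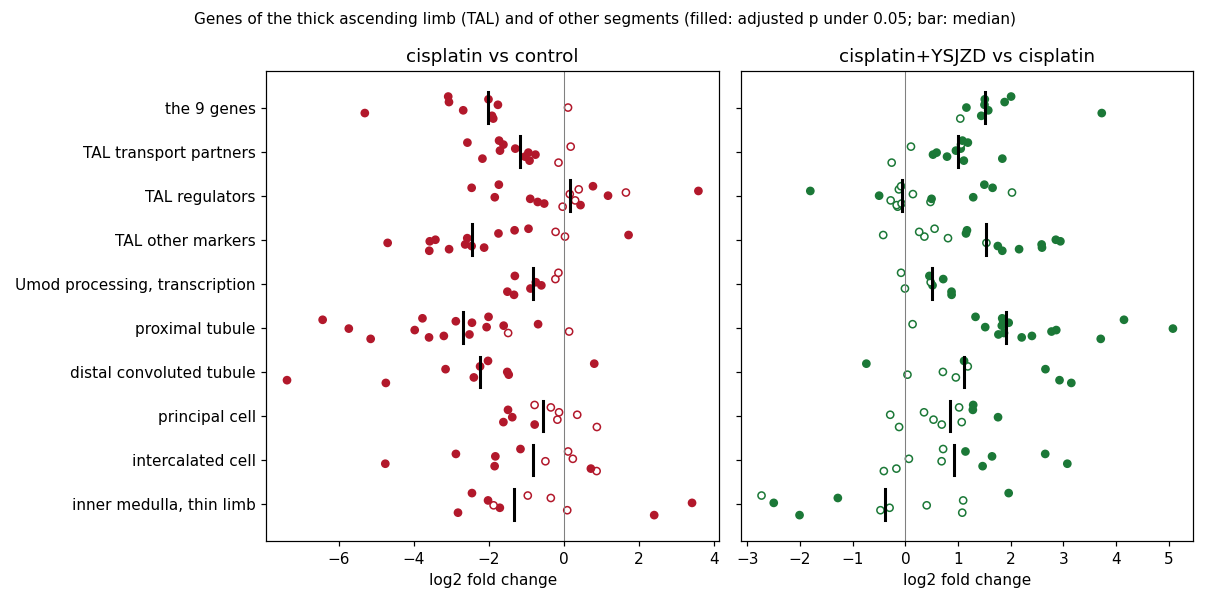
Log2 fold change (x axis) of single genes (points, filled where the adjusted p was under 0.05) in the 9 members, 4 further lists of thick ascending limb (TAL) genes and 5 lists of other tubule segments (rows), with the list median as a bar, for cisplatin vs control (left) and cisplatin+YSJZD vs cisplatin (right). The 9 genes have a median of -2.01 on the left and 1.51 on the right, and the proximal tubule genes -2.69 and 1.92.

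The genes whose levels followed the 9 members most closely were Ctdspl, Ift172, Irx1, Ppp1r1a and Stk32b, with Pearson r of 0.982 to 0.987 to the mean of the members over the 9 libraries, among 9641 genes of at least 10 CPM. Ppp1r1a, an inhibitor of protein phosphatase 1, had 50.7, 99.3 and 80.9 CPM with YSJZD, 15.1, 24.7 and 28.6 CPM with cisplatin and 136, 83.4 and 156 CPM in control. Those closest to Umod alone were Ccdc85c (0.988), Abca13 (0.970), Ppp1r1a (0.964), Fgfr2 (0.959) and Jarid2 (0.958). These values describe 9 libraries in 3 groups that share depth and treatment, and no test was made of them. Among the members themselves, Cldn16 followed the others least, with r of 0.05 to 0.29, while the pairs without it had r of 0.69 to 0.96. With the group means removed this order did not hold. Cldn16 then had r of -0.61 (Egf) to 0.81 (Casr) with the other members, and the pairs without it had r of -0.30 (Egf with Bsnd) to 0.86 (Slc12a1 with Kcnj1).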

How the data were processed

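The deposited table holds 58075 RefSeq transcripts of 9 mouse kidney cortex libraries. Read counts per transcript are given, per the file headers, and RSEM 1.3.1 is named in the submitters' processing notes, so the authors' values are expected counts. DESeq2 1.4.5 and GRCh38, a human build, are also named there. Neither a mouse build nor an aligner is given in the sources used here, so positions are printed only with sequences, which were read from a GRCm38 reference. A further set of deposited columns was taken as FPKM, judged by its values.

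Expected counts were summed per Entrez gene and rounded (16.5% to 19.3% of a library's gene counts lay more than 0.005 from a whole number). One edgeR 4.0.16 fit (R 4.3.3) held all 9 libraries, with filterByExpr, TMM factors (0.855 to 1.105), a quasi-likelihood test by group and Benjamini-Hochberg adjustment over 13954 genes after 4009 were removed. The common biological coefficient of variation was 0.234. Ratios to Slc12a1 were tested in limma 3.58.1 on log2 CPM with a prior count of 2. Alternatives were DESeq2 1.42.0 and its size factors, library totals, other filters, only the 6 libraries compared, a replicate block, a prior count of 0.5 and each library left out. The members and gene lists were chosen with earlier results of these data known, and the transcript forms after the gene values were seen. The genes named are the 9 members, up to 4 genes of each thick ascending limb, uromodulin and EGF list per comparison by smallest p, up to 2 of other lists, and those said to be chosen after their values. Some genes of the lists and a search of promoter motifs are not reported here, and the list counts hold those genes.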

Additional observations from a re-analysis of the deposited data

How the results depend on the processing

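The count of members called in cisplatin against control was 8 under each of the 16 alternatives run. For YSJZD against cisplatin the count was 7 to 9 without single libraries and 9 in DESeq2. For YSJZD against control it was 2 to 5 without single libraries, and the count over all genes, 2694 with all libraries, was 1607 to 3138. With library totals as the only scaling the median of all genes moved to 0.27 for cisplatin against control and 0.20 for YSJZD against control. Without single libraries, the ratios to Slc12a1 called numbered 2 to 4 for cisplatin against control, 1 for YSJZD against cisplatin and 0 or 1 for YSJZD against control.

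Directions that turned as single libraries were left out belonged to values that had not passed the test, and the cause was not tested. For cisplatin against control, Cldn16 ranged from -0.0625 to 0.322, the ratio of Umod to Slc12a1 from -0.624 to 0.257 and that of Cldn19 from -0.140 to 0.302. For YSJZD against cisplatin, the ratio of Umod ranged from -0.576 to 0.305, that of Cldn10 from -0.0857 to 0.579, that of Cldn16 from -0.686 to 0.251, that of Cldn19 from -0.138 to 0.601 and that of Bsnd from -0.13 to 1.16. For YSJZD against control, Slc12a1 ranged from -0.853 to 0.0170, Cldn19 from -0.470 to 0.151, the downstream form of Cldn10 from -0.602 to 0.0956, and the ratios of Cldn19 and Kcnj1 to Slc12a1 from -0.0726 to 0.666 and from -0.397 to 0.126.

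Libraries with the same replicate number did not deviate together (r of -0.20 to 0.09), so the numbers were not read as pairs. With the replicate number as a block the member counts were 8, 9 and 3, with Umod called for YSJZD against cisplatin (adjusted p = 0.0352) and Egf not called for YSJZD against control (0.0603), and the downstream form of Cldn10 passed for cisplatin against control (0.0235). With 3 libraries a group an exact permutation test cannot go below 0.1.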
